A study of Mus musculus with 10 samples.

Results

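The expression of 9 genes was followed in mouse brain after injury: Pcsk1, Scg2, Vgf, Nptx1, Nptx2, Inhba, Rgs2, Rgs4 and Crem. They were chosen by name as late activity-regulated genes with secreted or signalling products, and each was read from the only row of the deposited table that named it alone. They made up 9 of the 30142 genes tested. In neurons, synaptic activity first induces transcription factors and Arc, the immediate early genes, and these transcription factors together with the phosphorylated factor CREB then induce later genes whose products act at synapses or outside the cell. CREB binds the cAMP response element, a short palindromic DNA motif. The later genes include precursors and enzymes of peptide-containing granules, pentraxins that gather glutamate receptors, growth factor subunits and inhibitors of G protein signalling.

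The study struck the cortex of one hemisphere with a piston to a depth of 2 mm, a model called controlled cortical impact, and took tissue 7 days later. There were 5 arrays of tissue at the impact site (ipsilateral) and 5 of the matching region of the other hemisphere (contralateral), so both sides came from injured mice and none from sham-operated or unimpacted mice. The mice were adults of 8 to 12 weeks bought from a commercial breeder, of a strain that the labels do not name, and no agent or engineered allele is named for either side. The labels name males and females, but Xist, the RNA of the inactive X chromosome, lay between 4.53 and 4.67 on all 10 arrays, while Uty, Kdm5d and Eif2s3y of the Y chromosome lay between 7.75 and 8.88. Values are log2 signals of 1 whole-transcript array per sample, on which 1 unit is a doubling, and precision is limited by there being 5 arrays per side. All 10 pan-neuronal markers averaged at least 11.41, against array medians of 5.48 to 5.65 over the genes tested, and every value of the 9 genes lay above these medians. Choroid plexus markers set the arrays numbered 2 and 4 apart on both sides. Their mean log2 signal was 8.74 and 7.22 on ipsilateral arrays 2 and 4 and 9.41 and 6.81 on contralateral arrays 2 and 4, while the other arrays lay between 5.46 and 5.65 ipsilaterally and between 5.35 and 5.52 contralaterally.

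Promoter windows of 5 of the 9 genes were searched for the cAMP response element (Pcsk1, Scg2, Rgs4, Rgs2 and Inhba). Nptx1, Nptx2 and Vgf had no window in the RefSeq table. Crem was left out of the search together with its chromosome, so whether its promoter holds the element was not examined. The promoters of the 2 searched genes with a complete element, Pcsk1 and Scg2, and of the 2 regulators of G protein signalling, Rgs4 and Rgs2, are shown because within each pair 1 gene fell and the other was not called. Each is the 250 bases upstream of the RefSeq start in GRCm38.p6, printed 5′ to 3′ on the gene's strand. Capitals mark the core TGACG, searched on both strands and so also seen as CGTCA; both overlap in the complete TGACGTCA. The windows lie at chr13:75089607-75089856 (plus strand) for Pcsk1, chr1:79440027-79440276 (minus) for Scg2, chr1:169747643-169747892 (minus) for Rgs4 and chr1:144004150-144004399 (minus) for Rgs2.
Pcsk1: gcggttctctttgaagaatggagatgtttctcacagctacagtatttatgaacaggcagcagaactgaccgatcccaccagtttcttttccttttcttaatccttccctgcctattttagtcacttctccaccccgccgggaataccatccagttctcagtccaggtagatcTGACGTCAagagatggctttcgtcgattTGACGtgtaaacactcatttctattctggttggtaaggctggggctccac
Scg2: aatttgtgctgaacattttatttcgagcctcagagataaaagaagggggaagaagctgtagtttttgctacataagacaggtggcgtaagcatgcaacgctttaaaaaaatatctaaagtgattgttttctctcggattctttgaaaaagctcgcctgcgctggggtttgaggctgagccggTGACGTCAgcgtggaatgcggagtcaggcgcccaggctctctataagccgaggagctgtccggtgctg
Rgs4: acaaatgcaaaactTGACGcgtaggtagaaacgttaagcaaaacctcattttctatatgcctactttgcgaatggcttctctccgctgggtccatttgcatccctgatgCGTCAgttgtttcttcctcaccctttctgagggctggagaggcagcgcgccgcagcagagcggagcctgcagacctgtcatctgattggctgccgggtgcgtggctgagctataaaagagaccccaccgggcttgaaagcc
Rgs2: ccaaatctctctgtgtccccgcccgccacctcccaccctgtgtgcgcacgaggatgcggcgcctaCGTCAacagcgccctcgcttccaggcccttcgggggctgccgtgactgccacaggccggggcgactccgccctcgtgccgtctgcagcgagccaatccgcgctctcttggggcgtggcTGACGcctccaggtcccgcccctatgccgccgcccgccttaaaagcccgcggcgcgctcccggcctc

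The complete element began 78 bases upstream of the Pcsk1 start and 68 bases upstream of the Scg2 start, and Pcsk1 had a further core 50 bases upstream. Rgs4 had cores at 236 and 141 bases and Rgs2 at 185 and 67 bases, and the Inhba window held neither motif. A complete element was present in 1.55% of 32851 windows of this length, and a core on either strand in 17.8%. Of these 2 among 5 searched genes with the complete element, Pcsk1 fell and Scg2 was not called. Crem, which also fell, was not among the genes searched, so this split does not cover it.

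Of the 9 genes, 3 fell at the impact site, none rose and 6 were not called in limma at an adjusted p under 0.05. Rgs4, Pcsk1 and Crem fell, with log2 fold changes of -1.83, -1.31 and -0.40, and each was lower on all 5 ipsilateral arrays than on any contralateral one. Over all genes tested, 4.33% were called lower, 1.22% were called higher and 5.21% were lower with no overlap between the sides. These shares stand for 1305 genes lower and 369 higher, against 2130 lower and 225 higher with array medians set equal. Among the brighter 50% of the genes, to which Pcsk1, Rgs4 and Crem belong, 10.9% were called lower when tested alone, and these 3 were among them. The median log2 fold change, ipsilateral minus contralateral, was -0.16 over the 9 genes and 0.02 over all genes tested.

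**Figure D1:**
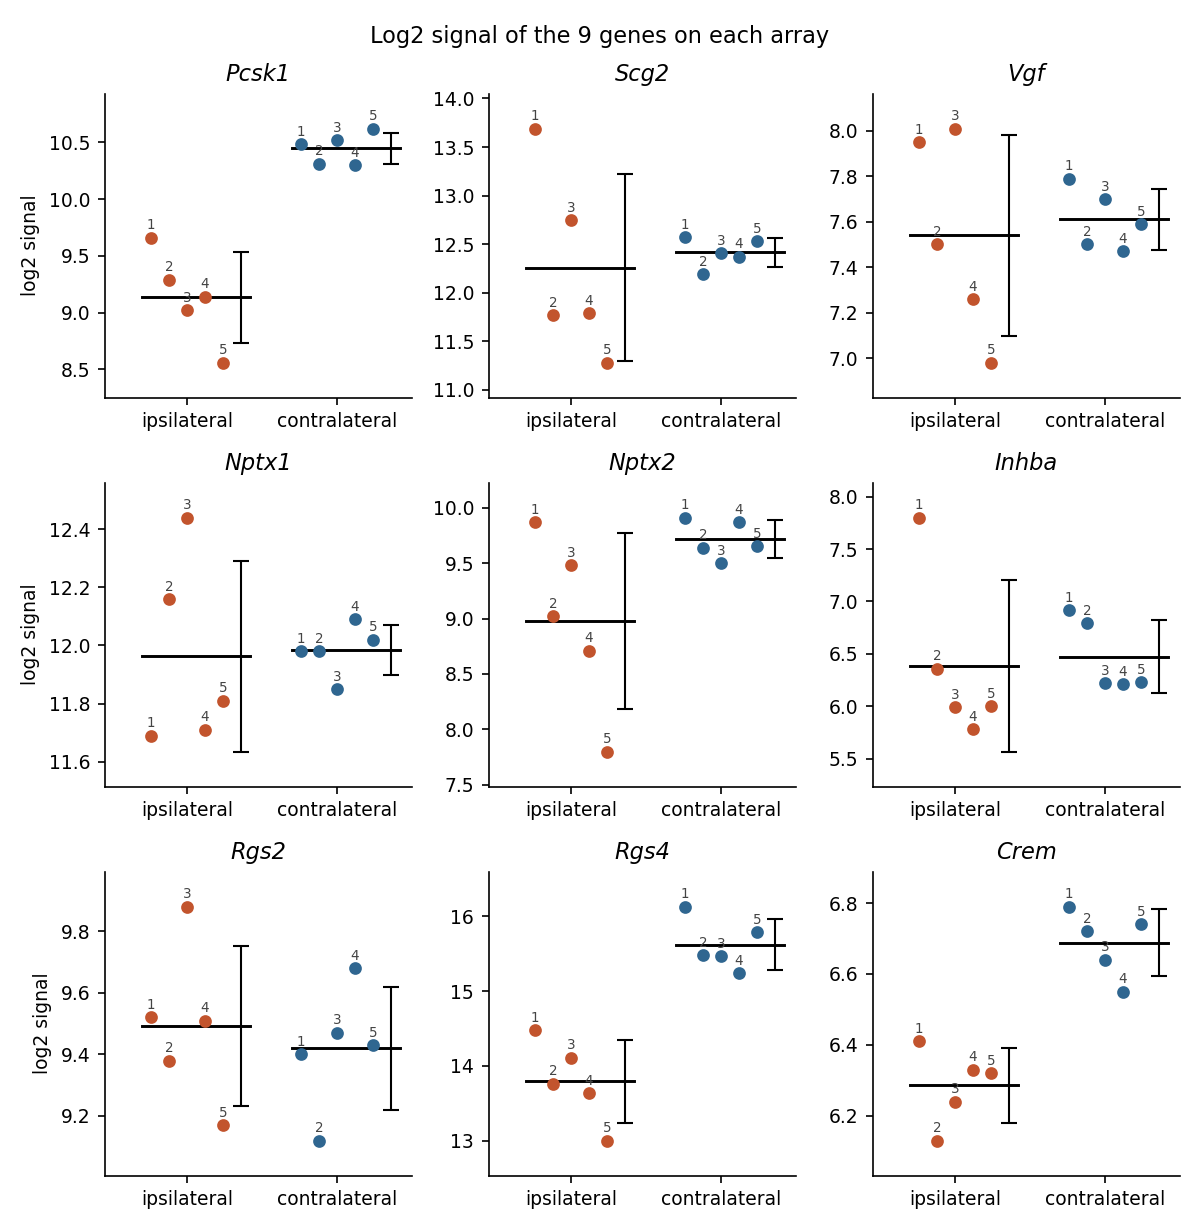
Log2 signal (y axis) of each gene on the 5 ipsilateral arrays (left) and the 5 contralateral arrays (right); numbers are replicate numbers, horizontal lines the means and bars the SD. Pcsk1, Rgs4 and Crem show no overlap between the sides, while ipsilateral points of Scg2 lie above and below all its contralateral points, and those of Nptx2 reach from 9.87 down to 7.80.

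Among the genes of the regulated secretory pathway, the processing enzyme fell while the 2 granule cargo genes did not differ beyond the spread between arrays. Pcsk1, which encodes prohormone convertase 1, a protease that cuts peptide precursors inside granules, read 9.66, 9.29, 9.02, 9.14 and 8.56 on ipsilateral arrays 1 to 5, against 10.48, 10.31, 10.52, 10.30 and 10.62 on contralateral arrays 1 to 5. Even the highest ipsilateral array lay 0.64 below the lowest contralateral one. The means were 9.13 ± 0.40 ipsilaterally and 10.45 ± 0.14 contralaterally (SD, n = 5 each), a log2 fold change of -1.31 ± 0.17 (SE, limma adjusted p = 0.00202), so that ipsilateral signal was 0.403 times the contralateral one (95% interval 0.311 to 0.522).

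Scg2, the precursor of secretogranin II and secretoneurin, read 13.69, 11.77, 12.75, 11.79 and 11.28 on ipsilateral arrays, against 12.57, 12.19, 12.41, 12.37 and 12.53 on contralateral arrays. No ipsilateral array lay inside the contralateral range: arrays 1 and 3 were above it and arrays 2, 4 and 5 below. The means, 12.26 ± 0.96 ipsilaterally and 12.41 ± 0.15 contralaterally (SD, n = 5 each), differed by -0.16 (95% interval -0.996 to 0.68, limma adjusted p = 0.864). Vgf, a granin-like precursor of several neuropeptides, showed a smaller version of the same scatter. Its values were 7.95, 7.50, 8.01, 7.26 and 6.98 on ipsilateral arrays, against 7.79, 7.50, 7.70, 7.47 and 7.59 on contralateral arrays. The log2 fold change of Vgf was -0.07 (95% interval -0.48 to 0.34, limma adjusted p = 0.877).

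Of 14 other genes of granules and peptide processing, 2 fell, none rose and 12 were not called, with a median log2 fold change of -0.20. Scg5, the chaperone of prohormone convertase 2, fell by 0.69 on the log2 scale (limma adjusted p = 0.00197). Cadps2, a priming factor for granule release, fell by 1.06 (limma adjusted p = 0.0168, but 0.0518 without contralateral replicate 1). The granule protein Chgb had a log2 fold change of 0.01 and did not pass the test. Pcsk2 was not analysed here.

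The 2 neuronal pentraxins are secreted lectin-like proteins that cluster AMPA-type glutamate receptors. Nptx2 read 9.87, 9.02, 9.48, 8.71 and 7.80 on ipsilateral arrays, against 9.91, 9.64, 9.50, 9.87 and 9.65 on contralateral arrays. On 4 ipsilateral arrays the value lay below every contralateral one, and ipsilateral replicate 1 lay inside the contralateral range. The means were 8.98 ± 0.79 ipsilaterally and 9.71 ± 0.17 contralaterally (SD, n = 5 each). The log2 fold change of -0.74 ± 0.32 (SE) had an unadjusted p of 0.0404 and did not pass the limma test after adjustment (adjusted p = 0.211, and 0.0676 at a log2 fold change of -0.96 without ipsilateral replicate 1). Without ipsilateral replicate 5 the log2 fold change was -0.44 (limma adjusted p = 0.304).

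Nptx1 read 11.69, 12.16, 12.44, 11.71 and 11.81 on ipsilateral arrays, against 11.98, 11.98, 11.85, 12.09 and 12.02 on contralateral arrays. As with Scg2, ipsilateral arrays lay on both sides of the contralateral range, 2 above and 3 below. The difference of the means was -0.02 (95% interval -0.33 to 0.28, limma adjusted p = 0.951), and it was positive with quantile scaling (0.048) and cyclic loess scaling (0.061). Among 9 measured AMPA receptor genes and pentraxin partners, 2 rose and 1 fell, with a median log2 fold change of -0.09. The receptor subunit Gria1 rose by 0.84 (limma adjusted p = 0.00315) and the auxiliary subunit Shisa9 by 0.63 (0.0383), while Cacng2, the auxiliary subunit stargazin, fell by 0.99 (0.00155). The Shisa9 call ended with the array medians set equal (adjusted p = 0.0653) and without ipsilateral replicate 1, 2, 3 or 5 or contralateral replicate 1, 2, 3 or 5 (up to 0.100).

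Inhba encodes the subunit of activin A, a growth factor of the transforming growth factor beta family. Its values were 7.80, 6.36, 5.99, 5.78 and 6.0 on ipsilateral arrays, against 6.92, 6.79, 6.22, 6.21 and 6.23 on contralateral arrays. Ipsilateral replicate 1 exceeded every other array, and ipsilateral replicates 3, 4 and 5 lay below every contralateral one. The log2 fold change was -0.09 (95% interval -0.85 to 0.68, limma adjusted p = 0.921), and -0.44 without ipsilateral replicate 1 (adjusted p = 0.177). Of 14 other genes of activin signalling only Acvr1b, a type I activin receptor, passed the test, falling by 0.43 on the log2 scale (limma adjusted p = 0.0105). The inhibitory Smad7 was at -0.33 and did not pass (limma adjusted p = 0.0625). It passed under 5 of the 18 alternatives chosen with the design (adjusted p = 0.00989 without ipsilateral replicate 1, and 0.0187 to 0.0494 with array medians set equal, array weights, the dimmer genes left out or quantile scaling), and the list's median was -0.02.

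The 2 regulators of G protein signalling, which speed GTP hydrolysis by G protein alpha subunits and so shorten receptor signals, behaved unequally. Rgs4 read 14.48, 13.76, 14.11, 13.63 and 13.00 on ipsilateral arrays, against 16.13, 15.48, 15.47, 15.24 and 15.79 on contralateral arrays. The sides were separated by 0.76 between the highest ipsilateral and the lowest contralateral array. The means were 13.80 ± 0.55 ipsilaterally and 15.62 ± 0.34 contralaterally (SD, n = 5 each), a log2 fold change of -1.83 ± 0.26 (SE, limma adjusted p = 0.00305) or an ipsilateral signal of 0.282 times the contralateral one (95% interval 0.191 to 0.418). This was the largest change among the 9 genes.

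Rgs2 read 9.52, 9.38, 9.88, 9.51 and 9.17 on ipsilateral arrays, against 9.40, 9.12, 9.47, 9.68 and 9.43 on contralateral arrays. Of the ipsilateral values 4 lay inside the contralateral range, and the log2 fold change was 0.07 (95% interval -0.22 to 0.37, limma adjusted p = 0.816). Of 17 other RGS genes, 2 fell and none rose, with a median log2 fold change of 0.07. Rgs6 fell by 1.08 on the log2 scale (limma adjusted p = 0.00748) and Rgs7, of the same subfamily, by 0.52 (0.0387). The Rgs7 call ended in every fit without 1 array (adjusted p = 0.0565 to 0.100) except the one without ipsilateral replicate 3, and with quantile (0.0877) and cyclic loess scaling (0.0744).

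Crem encodes the cAMP response element modulator, whose short ICER products repress the genes that CREB activates, and its row did not separate these products from the longer ones. Crem read 6.41, 6.13, 6.24, 6.33 and 6.32 on ipsilateral arrays, against 6.79, 6.72, 6.64, 6.55 and 6.74 on contralateral arrays. The gap between the sides was narrow, 0.14, but neither side spread widely. The means were 6.29 ± 0.11 ipsilaterally and 6.69 ± 0.09 contralaterally (SD, n = 5 each). The log2 fold change was -0.40 ± 0.07 (SE, limma adjusted p = 0.00841), an ipsilateral signal of 0.757 times the contralateral one (95% interval 0.681 to 0.842). Of 16 other genes of cAMP and CREB signalling 1 passed the test: Adcy1, a calmodulin-stimulated adenylyl cyclase of neurons, fell by 1.60 (limma adjusted p = 0.000317). The list's median log2 fold change was -0.07, Creb1 itself was at 0.00, and the CREB coactivator gene Crtc3 was at 0.25 (adjusted p = 0.123).

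Of the 9 genes, 5 were set against a related gene on the same array, which asks whether the pair changed unequally. Rgs4 minus Rgs2 was 4.30 ± 0.42 ipsilaterally and 6.20 ± 0.44 contralaterally (SD, n = 5 each), a difference of -1.90. Crem minus Creb1 was -3.99 ± 0.09 ipsilaterally and -3.59 ± 0.08 contralaterally (SD, n = 5 each), a difference of -0.40. In both pairs the sides did not overlap, and the exact two-sided permutation p was 0.00794, the smallest that 5 arrays against 5 allow (0.0198 after Benjamini-Hochberg adjustment over 5 pairs).

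Nptx2 minus Nptx1 was -2.99 ± 0.78 ipsilaterally and -2.27 ± 0.13 contralaterally (SD, n = 5 each), and the difference of -0.72 did not pass the exact permutation test after adjustment (p = 0.0476, adjusted p = 0.0794). Without ipsilateral replicate 1, at -1.82 the highest of all arrays in this pair, the difference was -1.01 and passed the exact permutation test (adjusted p = 0.0265). It did not pass that test when any other single array was left out (adjusted p = 0.132 to 0.159). Without ipsilateral replicate 5, at -4.01 the lowest array, the difference was -0.46 (adjusted p = 0.159). Scg2 minus Chgb differed by -0.17 and Inhba minus Inhbb, the other activin subunit, by -0.04 (exact permutation adjusted p = 0.873 and 0.937). In both of these pairs ipsilateral replicate 1 lay above the contralateral range, replicate 3 inside it and replicates 4 and 5 below it.

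**Figure D2:**
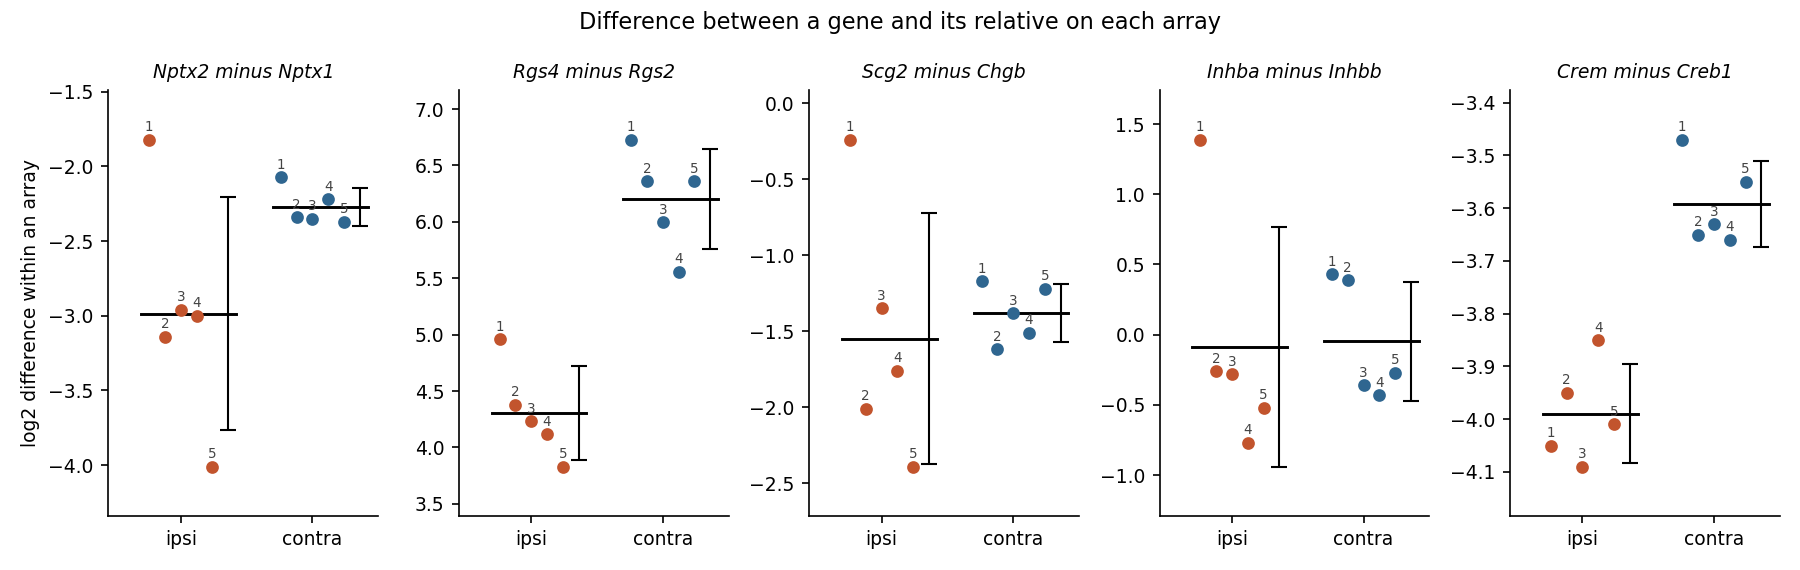
Log2 signal of a gene minus that of its relative on the same array (y axis) for 5 pairs, ipsilateral arrays left and contralateral arrays right; numbers are replicate numbers, lines the means and bars the SD. The sides are apart for Rgs4 minus Rgs2 and for Crem minus Creb1.

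The spread between ipsilateral arrays exceeded that between contralateral arrays for all 9 genes, against 63.6% of all genes tested. The ratio of the ipsilateral to the contralateral SD ran from 1.13 for Crem to 6.42 for Scg2, with a median of 2.90, against a median of 1.24 over all genes. It was at least 3 for Scg2, Nptx2, Nptx1 and Vgf, and for 8.00% of all genes. A wider ipsilateral spread was not particular to the 9 genes. The ratio was 4.91 for Egr1, 2.70 for Egr3, 2.61 for Arc, 3.86 for Chgb and 2.53 for Creb1, but 0.543 for Scg5 and 0.713 for Adcy1. The ipsilateral arrays kept a partly shared order across the 9 genes. Ipsilateral replicate 5 was the lowest ipsilateral array for 6 of them, and ipsilateral replicate 1 the highest for 6. The same 2 arrays were lowest and highest for Dusp6, Rgs6, Lamp5 and Vip. Gria1 was instead lowest on ipsilateral replicate 4 and highest on ipsilateral replicate 2. How many of all genes tested kept this order was not counted.

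Averaged over the 9 genes, the difference from the contralateral mean was 0.08, -0.56, -0.27, -0.72 and -1.05 on ipsilateral arrays 1 to 5, and between -0.07 and 0.18 on the contralateral arrays. Ipsilateral replicates 4 and 5 were each below the contralateral range for 8 of the 9 genes. Ipsilateral replicate 3 was below it for 5 genes and above it for 4, which were Scg2, Vgf, Nptx1 and Rgs2. Ipsilateral replicate 1 was below it for 4 genes and above it for 3, which were Scg2, Vgf and Inhba. The shares of all genes tested that lay outside the contralateral range on single arrays were not counted. Whether these counts are particular to the 9 genes therefore cannot be told.

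**Figure D3:**
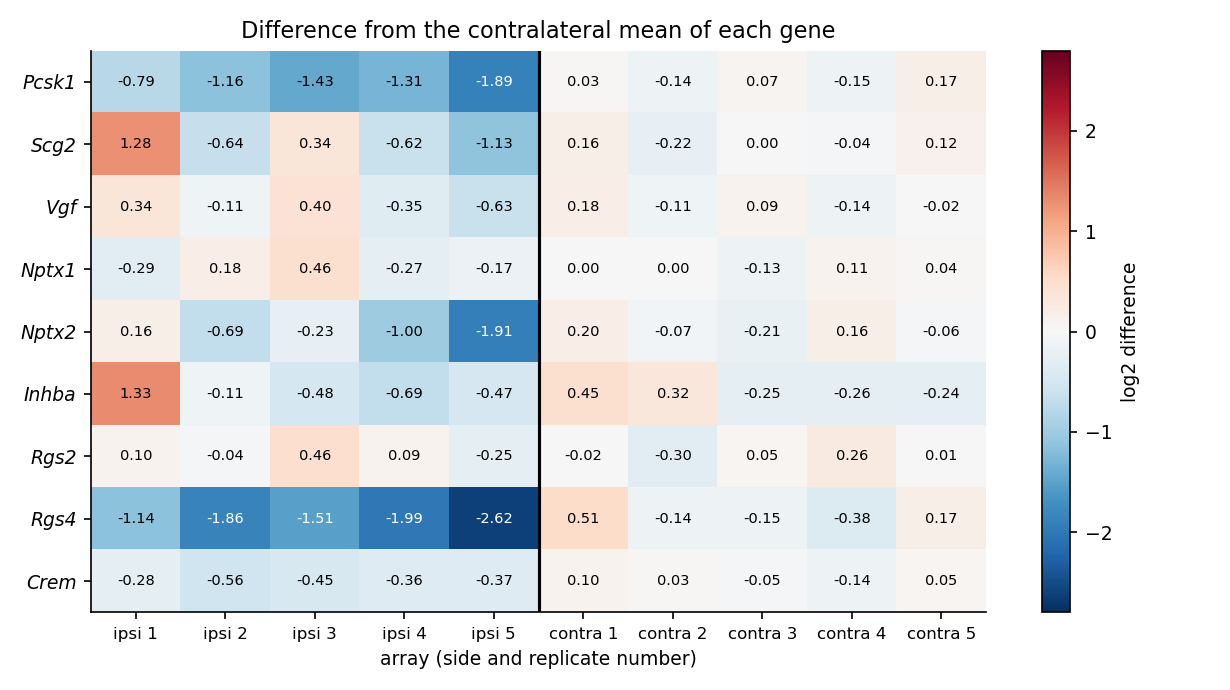
Log2 difference of each gene (rows) from its own contralateral mean on each array (columns, 5 ipsilateral arrays left of the line and 5 contralateral arrays right of it); blue is lower and red higher. Rgs4, Pcsk1 and Crem are lower on all 5 ipsilateral arrays, while Scg2 and Inhba are raised by 1.28 and 1.33 on ipsilateral replicate 1.

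Cell type markers also differed among the ipsilateral arrays, and not all in the same order as the 9 genes. The mean log2 signal of 9 microglial markers was 8.23, 8.61, 8.59, 9.86 and 9.61 on ipsilateral arrays 1 to 5, and between 7.84 and 8.49 on contralateral arrays. That of 9 leukocyte markers was 6.10, 6.48, 6.62, 7.85 and 7.80 on ipsilateral arrays, and between 5.84 and 6.43 on contralateral arrays. None of these 18 genes passed the test.

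Markers of cortical excitatory neurons were lower on every ipsilateral array, at 11.65, 11.91, 11.74, 11.72 and 11.68 on ipsilateral arrays 1 to 5 against 12.46 to 12.82 on contralateral arrays. Ipsilateral replicates 1 and 5, on which the 9 genes were highest and lowest on average, were the lowest and the next lowest here. Of 9 measured, 5 fell (Nrgn, Tbr1, Cux2, Rorb and Lamp5) and none rose. Pan-neuronal markers overlapped, at 14.04 to 14.45 ipsilaterally and 14.21 to 14.49 contralaterally (2 of 10 fell, Rbfox3 and Nefl). Inhibitory neuron markers lay at 10.18, 9.15, 9.50, 9.06 and 9.12 on ipsilateral arrays and at 9.40 to 9.63 contralaterally, with ipsilateral replicate 1 above all others (2 of 9 fell, Pvalb and Vip). Striatal projection neuron markers lay at 7.46, 7.13, 8.40, 7.60 and 7.07 on ipsilateral arrays and at 6.83 to 7.16 contralaterally. Ipsilateral replicate 3 was the highest, and none of 7 passed. Astrocyte markers lay at 11.11 to 12.31 ipsilaterally and 10.74 to 11.19 contralaterally (1 of 9 rose, Aqp4). Oligodendrocyte markers lay at 9.82 to 11.11 ipsilaterally and 10.54 to 11.86 contralaterally (2 of 7 fell, Mal and Opalin). Endothelial and mural markers lay at 8.64 to 9.61 ipsilaterally and 8.50 to 9.02 contralaterally (none of 8 passed). Without contralateral replicate 1, Nefl and Opalin did not pass (adjusted p = 0.0521 and 0.0526). The part of cell composition in the changes of the 9 genes was not tested, and in bulk tissue fewer cells of a type and less RNA per cell cannot be told apart.

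Of 24 other late activity-regulated genes measured, 6 fell, 1 rose and 17 were not called, with a median log2 fold change of -0.26. Falls outnumbered rises over all genes tested as well, at 4.33% lower and 1.22% higher, with a median of 0.02. The phosphatase gene Dusp6 fell by 1.55 on the log2 scale (limma adjusted p = 0.00415), the postsynaptic scaffold gene Homer1 fell by 1.44 (0.00421), the neurite-growth gene Nrn1 fell by 0.93 (0.0111), the ubiquitin ligase subunit gene Fbxo33 fell by 0.91 (0.00138) and the phosphatase gene Dusp14 fell by 0.64 (0.0230). The clock gene Per1, named after its value was seen, fell by 0.68 (0.0266). Plat, the secreted protease tissue plasminogen activator, rose by 0.72 (limma adjusted p = 0.00886). The neurotrophin gene Bdnf, also named after its value was seen, was at -0.26 (0.162). The Dusp14 call ended without ipsilateral replicate 2, 4 or 5 or contralateral replicate 1, 3 or 5 (adjusted p = 0.0523 to 0.0665).

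Of 12 measured immediate early genes, 5 fell (Arc, Egr1, Egr3, Egr4 and Dusp1), none rose and the median log2 fold change was -1.12. Arc, which acts at synapses, was at -3.44 and the transcription factor gene Egr1 at -1.96. The list's mean log2 signal was 9.25, 8.01, 7.87, 7.80 and 7.25 on ipsilateral arrays 1 to 5, and between 9.08 and 9.72 on contralateral arrays. Ipsilateral replicates 1 and 5 were thus the highest and the lowest ipsilateral arrays here as well.

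**Figure D4:**
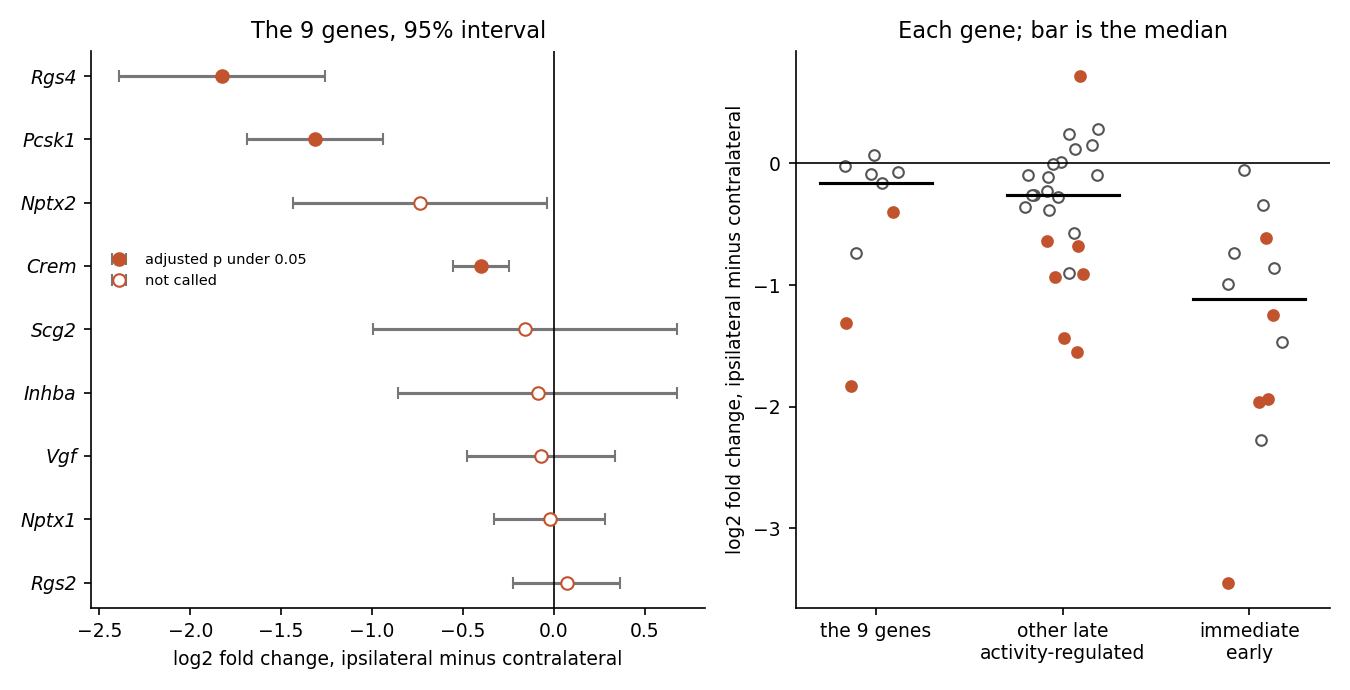
Log2 fold change, ipsilateral minus contralateral, of the 9 genes with 95% intervals (left panel, x axis) and of every measured gene of 3 lists (right panel, y axis); filled points have a limma adjusted p under 0.05 and bars in the right panel are medians. The list medians are -0.16 for the 9 genes, -0.26 for other late genes and -1.12 for immediate early genes.

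Genes whose profiles over the 10 arrays lay closest to those of the 3 genes that fell were found by the root mean square difference of log2 signals, each centred on its gene's mean, among 10749 genes with a mean above 6, predicted genes left out. Nearest to Pcsk1 were Vip, the precursor of vasoactive intestinal peptide (0.152), the transcription factor gene Etv5 (0.158) and Syne1, which encodes a large spectrin-repeat protein (0.191), where Pcsk1 itself deviated from its mean by 0.709. Nearest to Rgs4 were the copine gene Cpne9 (0.131), the Rab27-effector gene Exph5 (0.149) and the calmodulin-dependent kinase kinase gene Camkk2 (0.164), where Rgs4 deviated by 1.00. Nearest to Crem were Commd4 (0.0400), the semaphorin gene Sema3f (0.0527) and the coenzyme Q gene Coq9 (0.0591), where Crem deviated by 0.220. Their log2 fold changes lay between -1.71 (Camkk2) and -0.35 (Sema3f), a direction that the choice of near profiles fixes.

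The falls of Pcsk1, Rgs4 and Crem passed in each of the 10 fits that left out 1 array (adjusted p up to 0.0292) and under the other 8 settings chosen with the design (up to 0.0375). Without the arrays numbered 2 and 4, which carried the choroid plexus markers, 3 arrays remained per side. The log2 fold changes were then -1.46 for Pcsk1, -1.93 for Rgs4 and -0.40 for Crem, and none of the 3 passed in limma (adjusted p = 0.0570, 0.0717 and 0.0906).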

How the data were processed

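RNA from 10 mouse brain samples was measured on Affymetrix arrays. The deposited table holds log2 signals per row and array, a scale inferred from its range. The submitters' processing notes name Transcriptome Analysis Console 4.0. The background correction, scaling and genome build that the authors used are not given in the sources used here. Rows naming 1 gene symbol were kept, updated by Entrez identifier from the RefSeq table of GRCm38.p6, and the brightest row per gene was used (30142 genes of 65956 rows). Sides were compared in limma 3.58.1 (R 4.3.3) with lmFit and eBayes, no covariates, and Benjamini-Hochberg adjustment over all genes, two-sided, called under 0.05. Pairs of genes were compared by exact permutation (SciPy 1.17.1). The labels call the samples biological replicates without saying whether each came from its own mouse or whether both sides came from the same mice, so p-values measure the spread between these samples. The 9 genes and the lists were chosen with earlier results of these data known. Named list genes were the called ones (at most 6 by absolute moderated statistic) or, where fewer than 2 passed, the 2 with the largest statistic; marker genes were named where called. Promoters came from the RefSeq table, and a gene's window was the 250 bases before its start. Windows of 5 of the 9 genes were searched. Nptx1, Nptx2 and Vgf had no window there, and the chromosome that holds Crem was left out of the search of the 9 genes. Simulated data held 200 changed genes among 30142, with 1 SD per gene for both sides. In them 55% of changes of 0.5 on the log2 scale, 84% of changes of 1 and 98% of changes of 2 were recovered. All 9 genes had a larger SD ipsilaterally in the measured data, and recovery at such unequal spread was not simulated. The measured data also had more called genes, 1305 lower and 369 higher, than the 200 changed in the simulation. Recovery with that many changed genes was not simulated either. Alternatives were 3 scalings, the replicate block, a filter on the dimmer 50% of genes, the mean of a gene's rows, another variance model, array weights and the omission of each array, and, added with the results known, of the arrays numbered 2 and 4.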

Additional observations from a re-analysis of the deposited data

Results flagged for a closer look

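Inhba on ipsilateral replicate 1 stood far from the other arrays of its side. Its log2 signal was 7.80, while the other 4 ipsilateral arrays lay between 5.78 and 6.36 and the contralateral arrays between 6.21 and 6.92. The gap to its nearest ipsilateral neighbour made up 0.713 of the whole ipsilateral range, just above Dixon's 95% critical value for 5 samples. It was 1 of 18 groups examined in this way (9 genes on 2 sides), and chance flags about 1 group in 20. The immediate early gene mean of the same array, 9.25, was the highest of the ipsilateral arrays.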

How the results depend on the processing

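Of the 9 genes, 3 were called lower and none higher under all 18 alternatives chosen with the design, and 0 were called lower without the arrays numbered 2 and 4, where only 3 arrays per side were left. Over all genes, 177 were called higher and 769 lower with the replicate block, 225 and 2130 with array medians set equal, and 77 and 289 without the arrays numbered 2 and 4; array weights gave 656 higher. Leaving out 1 array gave 111 to 760 higher and 740 to 1607 lower. With array medians set equal, the median log2 fold change over all genes was -0.04, against 0.02 as deposited. Same-numbered arrays did not deviate together throughout (correlations across genes from -0.40 to 0.26, own number best for 1 of 5). The arrays numbered 2 and 4 nevertheless shared high choroid plexus markers on both sides. These values cannot decide whether equal numbers mark pairs, and the main fit did not use pairs. With the replicate block Pcsk1, Rgs4 and Crem passed in limma (adjusted p = 0.0177, 0.0117 and 0.0375). Egr4, Cadps2, Shisa9, Rgs7, Nefl, Mal, Opalin and Sema3f did not pass with the block (0.0583 to 0.131).

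Without the arrays numbered 2 and 4, Rgs4 minus Rgs2 differed by -2.02 and Crem minus Creb1 by -0.50 (adjusted p = 0.250 each, in a design of 3 against 3 that cannot pass), and Inhba minus Inhbb turned to 0.26. Leaving out 1 array moved Nptx2 minus Nptx1 between -1.01 and -0.46, Scg2 minus Chgb between -0.50 and 0.04 and Inhba minus Inhbb between -0.41 and 0.13. Directions of uncalled genes turned as follows. Nptx1 was at 0.048 with quantile scaling, 0.061 with cyclic loess, 0.015 with array weights and 0.03 without the arrays numbered 2 and 4, where Scg2 was at 0.07 and Inhba at 0.14. Leaving out 1 array gave -0.14 to 0.046 for Nptx1, -0.19 to 0.07 for Vgf, -0.52 to 0.086 for Scg2, -0.44 to 0.064 for Inhba and -0.025 to 0.15 for Rgs2. The cause was not tested.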

Other observations

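The complete cAMP response element was also counted over all genes tested that had a promoter window. Of 388 genes with TGACGTCA in the 250 bases upstream, 37 were called lower (9.54%) and 2 higher, with a median log2 fold change of -0.05. Of all 17970 genes with a window, 971 were called lower (5.40%) and 231 higher, with a median of 0.01. These are counts without a test. Of the other late activity-regulated genes, 19 had a window and 1, the kinase gene Plk2 (log2 fold change -0.28, not called), held the element. Plk2 and Btg2 were named after their values were seen. Of the immediate early genes, 8 had a window and 2 held it: the phosphatase gene Dusp1, which fell by 1.25, and the antiproliferative gene Btg2, which was at -0.06 and was not called.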
